A study of Mus musculus with 4 samples.

Results

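The cells described here are the Sertoli cells recovered from mouse testis fragments kept in organ culture for 2 or 7 days. They were chosen from the measured values: a barcode had to carry at least 500 genes, at least 2000 unique molecular identifiers (UMIs, one per captured RNA molecule) and at most 20% mitochondrial UMIs. The summed UMIs of 9 Sertoli genes, Sox9, Cldn11, Aard, Cst9, Rhox8, Wt1, Amh, Dhh and Mro, had to reach 0.5% of all its UMIs. The germ cell genes Ddx4, Dazl and Sycp3 together could hold at most 4 UMIs. This gate took 689 cells from the 2-day culture and 459 cells from the 7-day culture, 1148 of the 24851 barcodes in the series. The same gate took 792 cells from testes at 9 days postpartum (dpp) and 635 cells from testes at 14 dpp, which served as the in vivo reference.

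All groups came from C57BL/6 mice that carry an Acr-Gfp transgene, a reporter for germ cells. Cultured testes were taken at 7 dpp, freed of their capsule, cut into fragments and laid on agarose partly covered by α-MEM with the serum substitute AlbuMAX, under a PDMS ceiling chip. The 2-day culture therefore has the same nominal age as the 9 dpp testis, and the 7-day culture the same as the 14 dpp testis. The study set single-cell transcriptomes of cultured testes beside those of testes in vivo, with 1 library per group. The labels do not say how many animals or fragments were pooled in a library, and the library preparation text speaks of female gonads although every sample is labelled testis.

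Sertoli cells are the somatic cells of the seminiferous tubule. They divide until shortly before puberty, then stop, form the tight junctions of the blood-testis barrier, answer follicle-stimulating hormone and testosterone, and feed lactate, iron and growth factors to the germ cells that lie between them. In the mouse this maturation runs through the second and the following week after birth, and the cultures end within it.

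With 1 library per group no difference could be tested against replicates, so the values below are descriptions of these 4 libraries. Levels are in CPM: the UMIs of a gene summed over the gated Sertoli cells of a library, divided by all UMIs of those cells and scaled to 1000000. The gated Sertoli cells of a culture are called 2-day cells and 7-day cells. Intervals are 95% exact Poisson intervals for levels and Clopper-Pearson intervals for shares, and they cover counting error only. Summed over Sertoli cells there were 5680675 UMIs for 2-day cells, 5414122 for 7-day cells, 12907273 at 9 dpp, and 7001273 at 14 dpp. The median gated cell held 6589, 8647, 12729.5 and 8720 UMIs in that order, so the 2-day culture was the shallowest per cell.

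Gated Sertoli cells made up 11.9% (95% interval 11 to 12.7) of the 5805 cells that passed the depth filters in the 2-day culture and 9.87% (9.03 to 10.8) of 4650 in the 7-day culture. In vivo they made up 15.2% (14.3 to 16.2) of 5198 cells at 9 dpp and 10.5% (9.71 to 11.3) of 6063 cells at 14 dpp. The shares are descriptions, since the gate itself set them, and how well dissociation freed each cell type was not tested. A further 50, 70, 137 and 387 cells (2-day culture, 7-day culture, 9 dpp, 14 dpp) reached 0.5% but held more than 4 germ UMIs and were left out. The gate genes gave 1.50% of the UMIs of the median 2-day cell and 1.71% of the median 7-day cell, and in vivo 2.16% at 9 dpp and 1.97% at 14 dpp. In the 2-day culture the gate cut through a tail of cells: 34 lay just inside (0.5 to 0.6%) and 21 just outside (0.4 to 0.5%), against 4 and 2 in the 7-day culture.

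**Figure D1:**
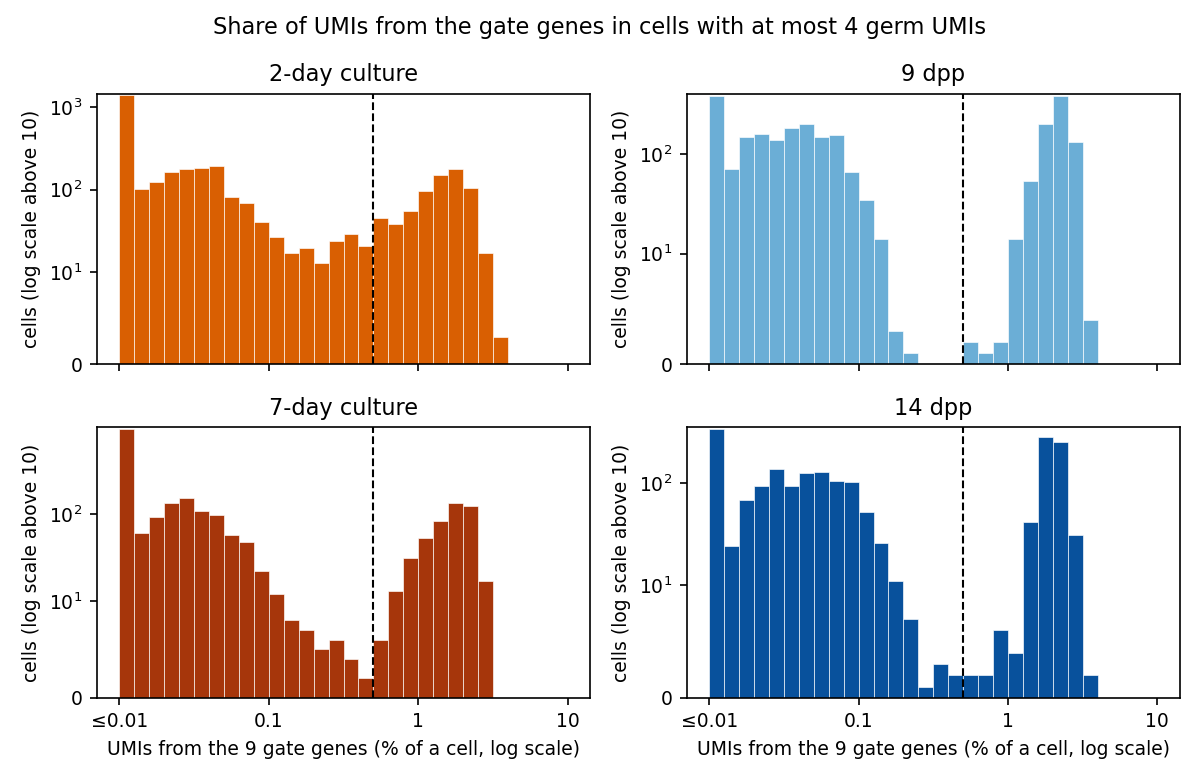
Number of cells (vertical axis) by the percentage of their UMIs that come from the 9 gate genes (horizontal axis, log scale), for cells with at most 4 germ UMIs, in each of the 4 libraries. The dashed line is the gate at 0.5%; a group to the right of the line is seen in all 4 libraries, and only at 9 dpp are there empty bins just below it; the 2-day culture has more cells near the line (34 just inside) than the 7-day culture (4).

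The label was checked against markers that the gate did not use. The Sertoli genes Gatm, Clu and Aldh1a1 were far above their level in germ-gated cells (at least 5 UMIs of the 3 germ genes). Germ-gated levels are given below as a comparison: they hold free RNA of the droplets together with what germ cells make themselves, and the 2 were not separated. Gatm stood at 2341 CPM in the Sertoli cells and 31.6 CPM in the germ-gated cells of the 2-day culture, and at 1720 and 11 CPM in the 7-day culture. Of other cell types, the macrophage genes C1qa, C1qb, C1qc and Ptprc were at 0 UMIs in the Sertoli cells of both cultures. The 9 macrophage markers summed to 4.58 CPM and 9.79 CPM in the cultures, and in vivo to 17.3 at 9 dpp and 44.8 at 14 dpp. The 8 endothelial markers summed to 14.6 and 9.42 CPM in the cultures and 13.6 and 6.28 CPM in vivo. The 8 Leydig markers summed to 81.3 CPM in 2-day cells and 66.5 in 7-day cells, above the germ-gated 11 and 15.5 and the stroma-gated 28.2 and 22.7, with Hsd3b6 and Lhcgr at 0 in both cultures; in vivo they summed to 186 at 9 dpp and 70.8 at 14 dpp. The 8 myoid markers summed to 345 and 212 CPM in the cultures and 410 and 453 in vivo, and to 187 and 92.0 in the germ-gated cells of the cultures. The 10 stromal markers, among them Dcn and 3 collagen genes, summed to 450 CPM in 2-day cells, 210 in 7-day cells, and in vivo 125 at 9 dpp and 257 at 14 dpp. In the germ-gated cells of the same libraries these markers summed to 822, 294, 197 and 165 CPM, and in stroma-gated cells to between 18731 and 23922 CPM. Stromal RNA was thus higher in the 2-day Sertoli cells than in the other libraries' Sertoli cells, and lower than in the 2-day germ-gated cells. Barcodes shared between pairs of libraries numbered 35 to 86 among all cells, and between 0 and 3 among gated Sertoli cells.

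To compare a culture with its in vivo counterpart, log2 ratios of CPM plus 1 were taken over 11690 genes with at least 50 UMIs in the Sertoli cells of the 4 libraries together. In the 2-day culture 751 genes (6.42%) were at least 2-fold higher than at 9 dpp and 718 (6.14%) at least 2-fold lower, and the median gene differed by -0.10. In the 7-day culture 1235 genes (10.6%) were at least 2-fold higher than at 14 dpp and 798 (6.83%) lower, with a median of 0.03. These percentages are the background for the gene groups below. Both pairs, which share no library, had 422 genes higher in common, 56.2% of the 2-day and 34.2% of the 7-day genes, and 266 lower, 37.0% and 33.3%.

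Inflammatory genes were higher in both cultures than in vivo. Of 60 genes of acute-phase, chemokine and NF-κB signalling, 42 had at least 50 UMIs over the Sertoli cells of the 4 libraries. Genes of a list that reached this minimum are called measured here and below. A gene near 0 in vivo could reach it through the cultures alone, so the minimum can favour genes high there. Of the 42, 34 were at least 2-fold higher in the 2-day Sertoli cells than at 9 dpp and none lower. The median log2 ratio was 2.60 (2.00 to 3.10). In the 7-day culture 27 were higher than at 14 dpp and 1 lower, Il1r1, the interleukin-1 receptor (4.8 against 17.6 CPM), with a median of 1.61 (0.53 to 2.32). Without the UMI minimum the medians were 1.67 for the 2-day pair and 0.88 for the 7-day pair. The intervals of a list are the medians of its genes' bounds. NF-κB is held in the cytoplasm by inhibitor proteins and, once freed by cytokine or pathogen signals, turns on chemokines, acute-phase proteins and its own inhibitors. C/EBPβ and C/EBPδ, encoded by Cebpb and Cebpd, act beside it on many of the same genes.

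Cebpd (chr16:15887286-15891031, GRCm38) was at 249 CPM (236 to 262) in 2-day cells, 206 (194 to 218) in 7-day cells, 3.8 (2.81 to 5.02) at 9 dpp, and 6.14 (4.44 to 8.27) at 14 dpp. That is 65.5-fold and 33.5-fold above the in vivo counterparts, and the level in germ-gated cells of the cultures was 29.6 and 8.05 CPM. In stroma-gated cells Cebpd was at 456 and 419 CPM in the cultures, 149 at 9 dpp, and 504 at 14 dpp, above the Sertoli level in every library. Cebpb was at 54.9 and 41.6 CPM in the cultures against 5.81 and 3.00 in vivo. Both transcription factors were thus high at each culture time and low in vivo. Lcn2, which encodes the iron-siderophore-binding acute-phase protein lipocalin 2 (chr2:32384633-32388252), was at 174 CPM (163 to 185) in 2-day cells and 38.6 (33.5 to 44.2) in 7-day cells. At 9 dpp it had 0 UMIs among 12907273, with an exact upper bound of 0.286 CPM. The 2-day level was 749-fold a floor of 3 UMIs at 9 dpp, and at 14 dpp Lcn2 stood at 0.571 CPM (0.156 to 1.46). Lcn2 was at 13.3 and 0.238 CPM in germ-gated cells of the 2 cultures, and at 310 and 14.7 CPM in their stroma-gated cells, above the Sertoli level in the 2-day culture and below it in the 7-day culture.

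Chemokines of the list draw immune cells, and complement tags microbes and debris. Cxcl1, a neutrophil attractant, was at 220 CPM (208 to 233) in 2-day cells, 75 (67.9 to 82.7) in 7-day cells, 2.63 at 9 dpp, and 6.00 at 14 dpp. C1s1, a protease of the complement cascade, was at 319, 93.8, 14.4 and 5.57 CPM, and C3, its central component, at 65.3, 10.7, 0.0775 and 0 CPM. Cd14, a co-receptor for bacterial lipopolysaccharide, was at 66.5 and 17.4 CPM in the cultures, with 0 UMIs at 9 dpp and 0.286 CPM at 14 dpp. For these genes the 2-day culture was highest and both in vivo libraries were lowest. Ccl17, a T-cell attractant, was the exception in order, at 12.7 CPM in the 2-day and 20.3 CPM in the 7-day culture, with 0.232 and 0.143 CPM in vivo. Socs3, which restrains cytokine receptor signalling through STAT3, was also higher in the later culture, at 51.6 (45.8 to 57.8) and 73.3 (66.3 to 80.9) CPM against 1.78 and 3.57 in vivo.

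The NF-κB subunits differed less from in vivo than these genes did. Rela was at 72.7 and 78.1 CPM in the cultures and 76.4 and 92.7 CPM in vivo, and Nfkb1 at 23.9 and 25.1 against 21.4 and 15.9. Relb, itself a target of the pathway, was at 40.7 and 47.3 against 5.89 and 12.6 CPM. Nfkbia, which encodes the inhibitor IκBα, was at 638 and 482 against 295 and 362 CPM. The other genes that met the rule for the 12 highest in both pairs were Psmb8, Tmem176a, Rin2, Ier3 and Casp12. Rin2, which encodes an exchange factor for the endosomal GTPase Rab5, was at 199 and 129 CPM in the cultures against 17.0 and 5.0 in vivo, and Casp12, a caspase tied to the endoplasmic reticulum, at 39.3 and 12.6 against 0.542 and 0.571.

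Some abundant inflammatory transcripts were lower in Sertoli cells than in germ-gated cells. Saa3, an acute-phase serum amyloid, was at 764 CPM in the 2-day Sertoli cells but at 1477 CPM in germ-gated and 34997 CPM in stroma-gated cells of that library. Hp, Ccl2 and Cxcl5 were likewise below the germ-gated level in the 2-day culture, at 45.1, 63.0 and 25.2 CPM against 68.6, 97.0 and 54.8. These 4 genes cannot be ascribed to the Sertoli cells from these values. Of the 42 inflammatory genes, 29 were at least 2 times their germ-gated level in 2-day cells and 27 in 7-day cells, and 6 and 4 were below it. In germ-gated cells the list's median was 0.77 for the 2-day pair and 0.43 for the 7-day pair, and in stroma-gated cells 2.96 and 1.77, near the Sertoli values. Stroma-gated cells thus held the pattern too, and no difference between the cell types was tested.

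In the 2-day culture, stromal RNA and the share of gate genes varied together with these levels. In the 139 cells of the 2-day culture with 0.5 to 1% gate UMIs, Lcn2 was at 336 CPM, Cxcl1 at 449 and the stromal gene Dcn at 311. In the 342 cells above 1.5% they were at 93.6, 131 and 32.2 CPM. The bands are cut by the gate genes themselves, and the part of stromal RNA in the result was not tested. With the gate at 1% the list's median was 2.39 for the 2-day pair and 1.53 for the 7-day pair, and without the cells that held over 0.2% stromal UMIs, 28 in the 2-day and 7 in the 7-day culture, it was 2.54 and 1.41.

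**Figure D2:**
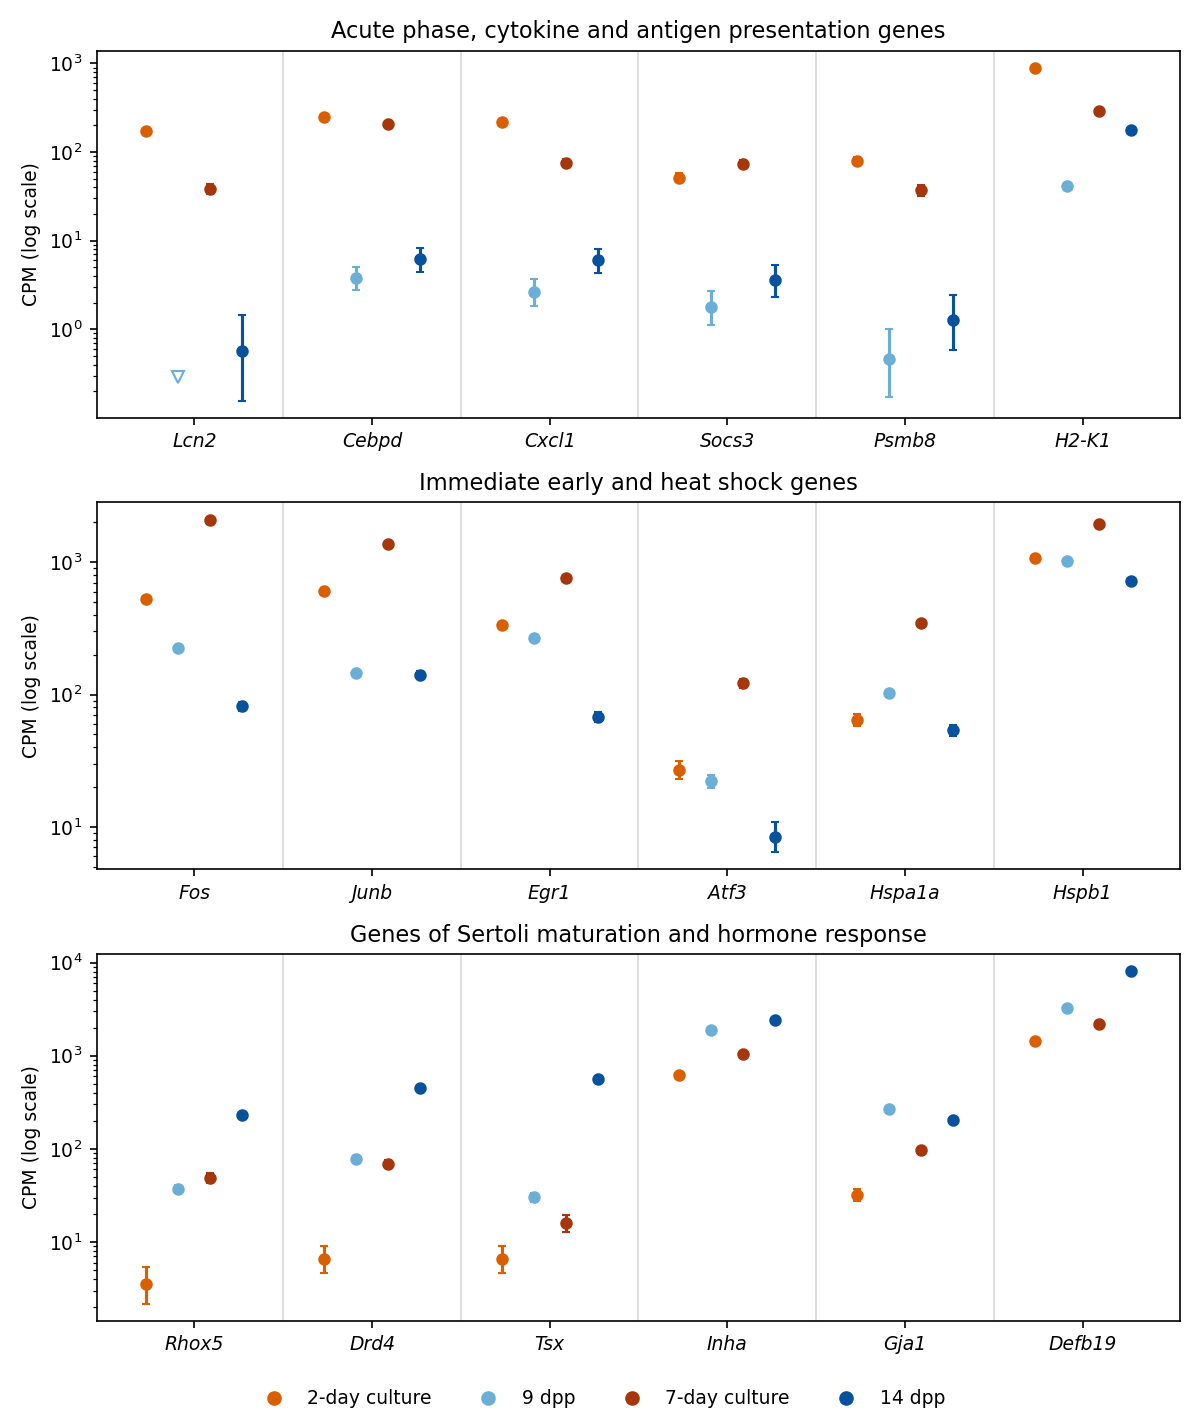
Level in gated Sertoli cells (CPM, log scale) of 18 genes in the 4 libraries, 6 genes in each panel, with 95% exact Poisson intervals; an open triangle marks a library with 0 UMIs at its upper bound. Lcn2, Cebpd and Cxcl1 lie high in both cultures and low in vivo, Fos and Hspa1a are highest in the 7-day culture (2082 and 349 CPM), and Rhox5 and Drd4 are lowest in the 2-day culture (3.52 and 6.51 CPM).

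Interferon-stimulated genes, which cells switch on through STAT and IRF factors after viral or cytokine signals, were more often higher than lower in both cultures. Their median ratio was larger in the 2-day pair, and the difference between the pairs was not tested. Of 26 measured, 21 were at least 2-fold higher in the 2-day culture and none lower, with a median of 2.27 (1.72 to 2.80). In the 7-day culture 13 were higher and none lower, with a median of 0.89 (0.08 to 1.46). Isg15, a ubiquitin-like modifier, was at 30.3 and 10.7 CPM in the cultures against 1.55 and 2.71 in vivo, and the GTPase gene Gbp2 at 28.2 and 8.13 against 1.01 and 0.857. Irf1, an interferon regulatory factor, had a wide gap at both times, at 35 and 36 CPM against 6.66 and 1.71. Ifitm3, a membrane protein that limits viral entry, was at 294 CPM in the 2-day Sertoli cells and 214 CPM in germ-gated cells. In germ-gated cells the list's medians were 0.28 and -0.10, and in stroma-gated cells 2.91 and 1.07, above the Sertoli values. Ifi27 did not take part, at 348 CPM in each culture and 397 and 351 CPM in vivo.

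Antigen presentation had the highest median of the 22 gene lists in the 2-day culture. Of 21 genes for class I molecules, the immunoproteasome, peptide transport and class II molecules, 16 were at least 2-fold higher than at 9 dpp and none lower, with a median of 3.39 (2.74 to 3.89). In the 7-day culture 12 were higher than at 14 dpp and none lower, with a median of 1.29 (0.60 to 1.92). In stroma-gated cells the list's medians were 3.50 and 2.81, above the Sertoli values in both pairs, and in germ-gated cells 0.64 and -0.03. H2-K1, a class I heavy chain, was at 878 CPM (854 to 903) and 290 (276 to 305) in the cultures, 40.9 (37.5 to 44.5) at 9 dpp and 178 (168 to 188) at 14 dpp. The 7-day culture was thus 1.63-fold above 14 dpp where the 2-day culture was 21.5-fold above 9 dpp. H2-D1, the other classical heavy chain, was at 1185 and 339 CPM against 25.9 and 57.7, and B2m, the light chain they share, at 1715 and 516 against 145 and 149. Psmb8 and Psmb9, catalytic subunits of the immunoproteasome, were at 79.4 and 37.3 against 0.465 and 1.29 CPM, and at 46.3 and 20.1 against 1.70 and 3.14. Tap1 and Tap2, which pump peptides into the endoplasmic reticulum, were at 26.8 and 8.68 against 2.48 and 4.00, and at 26.2 and 15.7 against 1.47 and 2.86. The class I heavy chain genes have near-identical relatives, and reads could be split among them. Of the 21 genes, 15 were at least 2 times their germ-gated level in 2-day cells and 12 in 7-day cells. Below it were 1 and 3. With cells thinned to the same number of UMIs, H2-K1 was seen in 67.2% of 2-day Sertoli cells and 31.4% of germ-gated cells. The shares were 39.2% and 38.8% in the 7-day culture, and 28.8% and 34.5% at 14 dpp. For H2-D1 they were 39.2% and 26.7%, and 10.4% and 21.3%, in that order. The source of the H2-K1 UMIs was not tested. Tapbp and Psme2 lay under 2-fold in both pairs.

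Class II genes, usually a mark of professional antigen-presenting cells, were also seen. Cd74, the invariant chain, was at 60.9 CPM (54.7 to 67.7) in 2-day cells, 14.4 (11.4 to 18) in 7-day cells, 0.930 (0.480 to 1.62) at 9 dpp, and 11 (8.68 to 13.7) at 14 dpp. Its germ-gated level in the cultures was 1.71 and 0.143 CPM and its stroma-gated level 18.2 and 8.02. H2-Aa was at 26.2 and 6.46 CPM against 1.39 and 1.43 in vivo, with 0.812 and 0.333 CPM in germ-gated cells. H2-Ab1, at 19 and 6.83 CPM, was at 17.2 and 22.4 CPM in germ-gated cells, and the source of its UMIs was not tested. With cells thinned to 2000 UMIs it was seen in 2.03% and 1.31% of cultured Sertoli cells and 0 and 0.472% of those at 9 and 14 dpp, and in 2.23 to 7.09% of germ-gated cells. With each cell thinned to 2000 UMIs, 8.13% of the 2-day Sertoli cells held a Cd74 UMI against 0.21% of germ-gated cells (median depths before thinning 6589 and 4394 UMIs), while the macrophage genes C1qa and Ptprc were at 0.

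Promoter sequences of 5 members from these groups and the stress group are shown because each gene was at least 2-fold above its in vivo counterpart in at least 1 culture and the letters of a known motif can be seen in its window. Each is the RefSeq window of 300 bases on GRCm38.p6, from 250 before to 50 after the gene's start, written 5′ to 3′ on the gene's strand, with the motif matches of either strand in capitals.
Cxcl1, chr5:90890995-90891294, plus strand, the NF-κB consensus: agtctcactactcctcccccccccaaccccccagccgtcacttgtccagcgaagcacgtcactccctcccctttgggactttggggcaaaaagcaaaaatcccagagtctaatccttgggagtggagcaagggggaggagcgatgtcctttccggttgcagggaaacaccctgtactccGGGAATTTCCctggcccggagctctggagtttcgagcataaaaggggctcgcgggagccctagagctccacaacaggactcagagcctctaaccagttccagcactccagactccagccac
H2-K1, chr17:34000298-34000597, minus strand, the NF-κB consensus with 2 overlapping matches: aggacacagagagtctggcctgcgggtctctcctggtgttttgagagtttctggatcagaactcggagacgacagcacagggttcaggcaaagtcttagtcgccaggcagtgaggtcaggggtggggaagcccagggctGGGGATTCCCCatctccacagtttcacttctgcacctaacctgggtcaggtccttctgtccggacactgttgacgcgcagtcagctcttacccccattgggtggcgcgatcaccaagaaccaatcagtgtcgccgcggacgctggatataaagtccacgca
Gbp2, chr3:142620413-142620712, plus strand, GAAANNGAAA: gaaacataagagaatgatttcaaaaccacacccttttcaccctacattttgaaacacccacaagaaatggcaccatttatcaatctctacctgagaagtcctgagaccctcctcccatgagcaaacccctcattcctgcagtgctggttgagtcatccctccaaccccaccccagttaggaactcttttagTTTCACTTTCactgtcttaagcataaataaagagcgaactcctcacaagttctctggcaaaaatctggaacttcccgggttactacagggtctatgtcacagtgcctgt
Isg15, chr4:156200769-156201068, minus strand, GAAANNGAAA with 3 overlapping matches: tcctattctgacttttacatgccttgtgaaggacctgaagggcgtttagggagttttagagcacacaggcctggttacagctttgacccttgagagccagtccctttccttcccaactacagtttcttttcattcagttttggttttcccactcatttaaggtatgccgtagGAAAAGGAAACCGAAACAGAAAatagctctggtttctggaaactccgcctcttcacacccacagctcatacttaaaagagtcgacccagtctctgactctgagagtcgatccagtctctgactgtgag
Hspa1a, chr17:34972107-34972406, minus strand, GAANNTTC: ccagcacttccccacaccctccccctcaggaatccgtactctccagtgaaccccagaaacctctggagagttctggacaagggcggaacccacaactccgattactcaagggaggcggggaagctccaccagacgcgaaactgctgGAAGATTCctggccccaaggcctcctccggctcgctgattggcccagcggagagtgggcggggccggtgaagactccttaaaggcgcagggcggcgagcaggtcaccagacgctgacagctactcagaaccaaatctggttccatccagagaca

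The NF-κB consensus was present in 10 of the 30 inflammation promoters in the RefSeq table (33.3%), 9 of 18 antigen presentation promoters (50%) and 3 of 22 interferon promoters, against 5.55% of all 27025 promoters. Among the inflammation genes it was in the windows of Cxcl1, Cxcl2, Nfkb2, Nfkbia, Tnfaip2, Tnfaip3, Tnip1, Sod2, Tlr2 and Csf1. GAAANNGAAA, the core of the element bound by interferon-activated factors, was in 12 of 22 interferon promoters (54.5%), 5 of 18 antigen presentation promoters and 2 of 30 inflammation promoters, against 3.49% of all. GAANNTTC, which holds inverted heat shock element units, was in 10 of the 29 immediate early and heat shock promoters (34.5%), among them Hspa1a, Hspa1b, Hspb1, Hspb8 and Hsph1, against 7.95% of all. It was also in 5 of 22 interferon promoters (22.7%), 3 of 18 antigen presentation promoters (16.7%) and 2 of 30 inflammation promoters. Of the 29 immediate early and heat shock promoters, 6 held the NF-κB consensus (20.7%) and 1 held GAAANNGAAA. The lists were chosen for known roles, among them NF-κB signalling, interferon and heat shock responses. A share above that of all promoters follows in part from that choice and is not a result about these cells. These are matches of letters in a short window and do not show binding. A window with no match, as for 20 of the inflammation promoters, says only that these letters are absent from it.

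Immediate early and heat shock genes set the 7-day culture apart. Immediate early genes are transcribed within minutes of a growth or stress signal without new protein synthesis, and heat shock genes encode chaperones that hold or refold damaged proteins. Of 36 measured, 28 were at least 2-fold higher in the 7-day culture than at 14 dpp and none lower, with a median of 2.39 (1.77 to 2.77). In the 2-day culture 13 were higher than at 9 dpp and 1 lower, the chaperone gene Hsph1, with a median of 0.32 (0.13 to 0.57). In the 7-day pair the list's median was 0.12 in germ-gated cells and 0.09 in stroma-gated cells, while in the Sertoli cells it was 2.39. The difference between the cell types was not tested. In those stroma-gated cells Fos itself was at 1534 CPM, so single genes of the list were abundant there. Stroma-gated Hspa1a was at 236 and 1096 CPM in the 2-day and 7-day cultures, and at 105 and 585 CPM at 9 and 14 dpp. From 2 to 7 days in culture the list's median was 0.29 in stroma-gated and 0.82 in Sertoli cells. From 9 to 14 dpp it was 0.22 and -0.50, so the 14 dpp reference moved differently in the 2 cell types.

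Fos, a subunit of the AP-1 transcription factor (chr12:85473890-85477273), was at 532 CPM (513 to 551) in 2-day cells, 2082 in 7-day cells, 223 (215 to 232) at 9 dpp, and 81.7 (75.1 to 88.7) at 14 dpp. The 7-day level was 25.5-fold that at 14 dpp and the 2-day level 2.38-fold that at 9 dpp. Its partners Jun and Junb were at 1544 and 1367 CPM in 7-day cells and 204 and 141 at 14 dpp, and at 568 and 602 in 2-day cells against 490 and 147 at 9 dpp. Egr1, a zinc finger factor of the same early wave, was at 337, 766, 268 and 68.0 CPM in the order 2-day culture, 7-day culture, 9 dpp and 14 dpp. Atf3, a stress factor, was at 27.1, 122, 22.1 and 8.43 CPM in the same order. For these genes the 7-day culture was the highest and 14 dpp the lowest of the 4 libraries, so both ends added to the ratio.

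Chaperones divided into groups. Hspa1a, an inducible HSP70, was at 64.6 CPM (58.2 to 71.6) in 2-day cells, 349 (333 to 365) in 7-day cells, 103 (97.7 to 109) at 9 dpp, and 53.7 (48.4 to 59.4) at 14 dpp, and its close copy Hspa1b, with which it may share reads, at 3.87, 30.8, 7.28 and 4.43. The small heat shock gene Hspb1 was at 1075, 1941, 1029 and 722 CPM. Both were higher in the 7-day culture alone. Hspb8 and Cryab, other small heat shock genes, were instead higher in both cultures, at 75 and 54.3 against 9.76 and 5.71 CPM and at 84.5 and 37.5 against 15.3 and 6.00. Hspa5, the chaperone of the endoplasmic reticulum, lay under 2-fold in both pairs, at 300 and 310 against 557 and 579 CPM, and the constitutive Hspa8 was at 1690 and 1950 against 1882 and 1717.

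Genes of Sertoli maturation and hormone response lay on the other side. Of 22 maturation genes, 6 were at least 2-fold lower in the 2-day culture and 2 higher, with a median of -0.41 (-0.56 to -0.22), and 8 were lower and 2 higher in the 7-day culture, with a median of -0.73 (-0.90 to -0.66). With the gate at 1% the maturation medians were -0.26 and -0.68, where the medians of all genes were -0.10 and 0.03. Of 25 hormone response genes, 10 were lower and 1, Fst, higher in the 2-day culture (median -0.75, -1.02 to -0.37). In the 7-day culture 6 were lower and 3 higher (median -0.27, -0.70 to 0.20), an interval that spans 0. Of 24 Sertoli identity genes outside the gate, 7 were lower and none higher in the 2-day culture (median -0.60), and 6 lower and 2 higher in the 7-day culture (median -0.24). The 7-day medians were also below 0 in other cells: -1.01 in germ-gated and -0.70 in stroma-gated cells for maturation, -0.55 and -0.24 for hormone response and -0.84 and -0.43 for identity. In the 2-day pair they lay nearer 0, at -0.06 and -0.11, -0.09 and 0.11, and -0.16 and -0.29 in the same order. Their levels are low there: the median germ-gated cell held 1 maturation UMI of 2000. Rhox5, Drd4, Tsx, Gja1, Inha and Defb19 illustrate the pattern, and several genes stand on more than 1 of these lists.

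Rhox5, an X-linked homeobox gene that androgen signalling turns on in Sertoli cells (chrX:37804842-37808876), was at 3.52 CPM (2.15 to 5.44) in the 2-day culture and 37.3 (34.0 to 40.7) at 9 dpp, 10.6-fold lower. It was at 48.8 CPM (43.1 to 55.0) in the 7-day culture and 233 (222 to 245) at 14 dpp, 4.78-fold lower. The 7-day cells were thus nearer to the 9 dpp level than to that of 14 dpp. Drd4, a dopamine receptor gene (chr7:141292006-141296464), followed the same course, at 6.51, 68.9, 78.2 and 453 CPM in the 2-day culture, 7-day culture, 9 dpp and 14 dpp. Hopx, a homeodomain co-factor gene, did so too, at 2.82, 34.4, 19.1 and 127 CPM. Tsx, next to Xist on the X chromosome, was at 6.51, 15.9, 30.1 and 568 CPM and stayed below even its 9 dpp level after 7 days. With cells thinned to 2000 UMIs, Drd4 was detected in 1.60% of 2-day and 11.3% of 7-day Sertoli cells against 13.0% at 9 dpp and 52.0% at 14 dpp, and in 0.34 to 1.16% of germ-gated cells.

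Fshr, the follicle-stimulating hormone receptor, was low in all 4 libraries, at 6.34 and 10.2 CPM in the cultures against 20.6 and 11.7 in vivo. Inha, the α subunit of the hormone inhibin that Sertoli cells release to restrain the pituitary, was at 622 CPM (601 to 643) and 1049 in the cultures against 1884 and 2403 in vivo, 3.03-fold and 2.29-fold lower. The β subunit gene Inhbb was at 58.8 and 58.6 against 150 and 107 CPM. Eppin, an androgen-responsive protease inhibitor, was at 82.0 CPM in 2-day cells and 289 in 7-day cells, against 261 at 9 dpp and 516 at 14 dpp. In the cultures androgen-responsive Rhox5 and Eppin were thus both higher at 7 days than at 2 days while below their 14 dpp level.

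Secreted and junction proteins of mature cells varied. Defb19, a β-defensin of Sertoli cells, was at 1455 and 2174 CPM in the cultures against 3288 and 8115 in vivo, and Cst12, a cystatin gene, at 2832 and 2739 against 3933 and 6430. Gja1, the gap junction protein connexin 43, was at 32.2 CPM (27.7 to 37.2) in 2-day cells and 96.0 (88.0 to 105) in 7-day cells against 269 (260 to 278) and 202 (192 to 213). It was 8.34-fold lower in the early pair and 2.11-fold lower in the later one. Aqp8, a water channel, had 0 UMIs in both cultures and 0.0775 CPM at 9 dpp, and stood at 21.3 CPM at 14 dpp, 38.4-fold a floor of 3 UMIs in the 7-day culture. Cldn3, a tight junction claudin, was at 1.58, 0.924, 0.387 and 12.4 CPM. Other maturation genes lay under 2-fold in both pairs: Clu was at 8078 and 5526 against 7542 and 8703 CPM, and Ldhb at 1771 and 1938 against 1824 and 2950. Others ran against the list: Trf, which encodes transferrin, was at 65.8 CPM in 2-day cells against 6.43 at 9 dpp, and Ptgds, prostaglandin D synthase, at 95.9 CPM in 7-day cells against 12.1 at 14 dpp. The other higher members were Wnt5a in 7-day cells and Cdkn1c in 2-day cells, the latter below its germ-gated level.

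**Figure D3:**
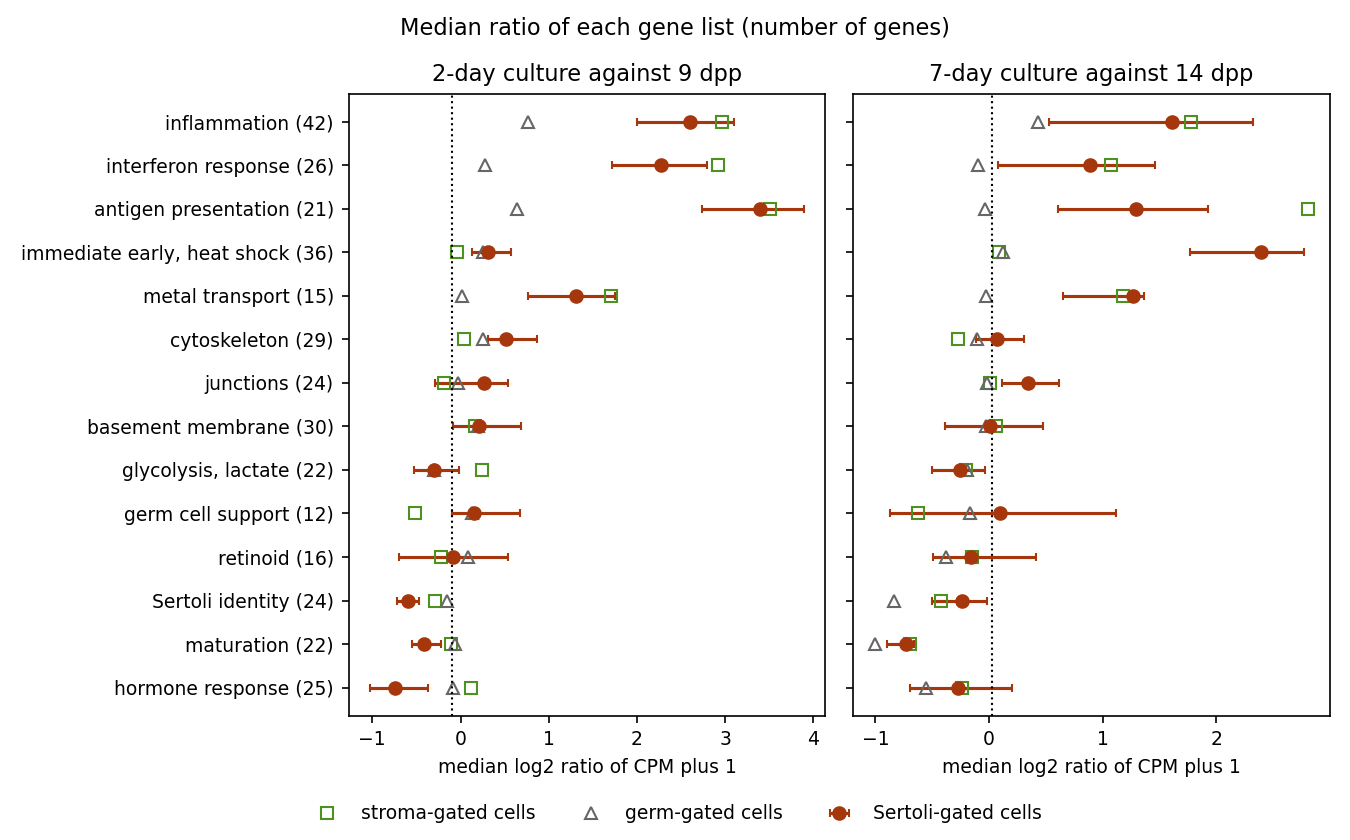
Median log2 ratio of CPM plus 1 (horizontal axis) for 14 gene lists in gated Sertoli cells, culture against its in vivo counterpart, for the 2-day and the 7-day pair. Lines are the medians of the genes' Poisson bounds, squares stroma-gated cells, triangles germ-gated cells and the dotted line all genes tested; inflammation, interferon and antigen presentation lie to the right in both pairs, and immediate early and heat shock genes lie far right in the 7-day pair only (2.39 against 0.32).

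The genes lowest in both pairs formed a distinct set. By the naming rule these were Gm9112, 1700011M02Rik, Gm15543, Tmsb15b2, Gm3880, Hist1h2bc, Plbd1, Gm40552, 1700018G05Rik, Drd4, Fmod and Zcchc18. On the X chromosome lay 6 of the 12, whereas 3.78% of the genes tested do. Gm3880, Gm9112, 1700011M02Rik and 1700018G05Rik sit within 243 kb of each other (chrX:102686292-102929094, GRCm38, GENCODE M21), a region with 6 tested genes that also holds Dmrtc1a and Dmrtc1b. Dmrtc1a and Dmrtc1b belong to the family of DM-domain genes to which Dmrt1 also belongs. 1700011M02Rik was at 15.1 CPM (12.1 to 18.7) in 2-day cells, 79.1 (71.7 to 86.9) in 7-day cells, 418 (407 to 430) at 9 dpp, and 1537 at 14 dpp. Gm9112 was at 0.352 and 0.369 CPM in the cultures, 2 UMIs in each, against 29.7 (26.8 to 32.8) and 834 (813 to 856) in vivo. 1700018G05Rik was at 25.9, 92.2, 181 and 988 CPM, and Gm3880 at 3.52, 15.9, 35.1 and 332. Dmrtc1a was at 38.0 and 75.9 CPM against 154 and 487, and Dmrtc1b had 0 UMIs in both cultures against 1.01 and 24.9 CPM.

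All 6 genes of the region were thus lower in each culture than in its counterpart and highest at 14 dpp. The 4 short genes are related in sequence: their transcripts align with each other at 86.1 to 94.5% identity over the aligned stretch, so reads may be split among them and the separate values are uncertain. In germ-gated cells they stood between 0 and 2.19 CPM in the cultures and reached 19.8 CPM at 14 dpp. Of the named genes off the X chromosome, Plbd1, a phospholipase B-like lysosomal protein, was at 13.6 and 3.7 CPM against 106 and 86.0, and Hist1h2bc, a histone gene, at 9.86 and 19.4 against 91.9 and 160.

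Genes of the immature Sertoli cell gave a mixed picture. Of 14 measured, 3 were at least 2-fold higher and 3 lower in the 2-day culture, and 4 higher and 2 lower in the 7-day culture, with medians of -0.11 and 0.29. The keratin genes Krt8 and Krt18, filaments of fetal Sertoli cells, were at 39.4 and 62.1 CPM in 2-day cells, 11.5 and 19.6 in 7-day cells, 14.1 and 11.8 at 9 dpp, and 0.857 each at 14 dpp. Mdk, the growth factor midkine, was at 724 (702 to 746), 146, 145 and 13.7 CPM in the same order. For these 3 genes the 2-day culture was highest and 14 dpp lowest, and Krt8 and Mdk in the 7-day culture lay close to 9 dpp. Id3, an inhibitor of basic helix-loop-helix factors, went the other way, at 19.7 and 36.9 against 75.5 and 181 CPM.

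The wider cytoskeleton list had 11 of 29 genes higher and 5 lower in the 2-day culture, with a median of 0.51 (0.31 to 0.87), and 9 higher and 4 lower in the 7-day culture, with a median of 0.07. Tubb6 was at 76.0 and 47.5 CPM in the cultures against 8.13 and 9.86, Tpm4, a tropomyosin, at 211 and 121 against 73.2 and 16.1, and Lmna, the nuclear lamin A gene, at 79.0 and 64.1 against 22.9 and 7.86. The tubulin genes Tubb3 and Tuba1a were lower, at 213 and 234 against 524 and 866 CPM and at 438 and 387 against 882 and 2053. Lmna and Tubb6 were at 63.4 and 34.5 CPM in the germ-gated cells of the 2-day culture, a larger part of the Sertoli level for Lmna than for Tubb6.

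Genes of the ovarian pathway were examined because Sertoli cells that lose Sox9 or Dmrt1 can take on granulosa features. Of 9 measured genes of testis and ovary fate, 3 were higher in 2-day cells than at 9 dpp, 4 were higher in 7-day cells than at 14 dpp and none were lower (medians -0.20 and 0.75). Foxl2, the granulosa factor, was at 0 UMIs in 2-day cells and both in vivo libraries and at 0.18 CPM in 7-day cells. Dmrt1 was at 88.2 and 94.8 CPM against 148 and 108, but germ cells make it too, at 297 and 199 CPM in the germ-gated cells of the cultures. Sox8, which acts beside Sox9, was at 27.6 and 38.4 against 35 and 47.0 CPM. Wnt4, a ligand that opposes testis fate in the embryo (chr4:137277489-137299726), was at 29.8 CPM (25.4 to 34.6) in 2-day cells, 9.60 (7.17 to 12.6) in 7-day cells, 0.930 (0.480 to 1.62) at 9 dpp, and 0.571 (0.156 to 1.46) at 14 dpp. Fst, the activin antagonist follistatin, was at 41.9 and 8.13 against 1.55 and 1.57. Their germ-gated levels in the 2-day culture were 1.95 and 8.69 CPM. The 7 granulosa markers, of which Wnt4, Fst and Amhr2 passed the UMI minimum, summed to 889 CPM in 2-day cells and 1080 in 7-day cells, and in vivo to 1166 at 9 dpp and 1619 at 14 dpp, so Wnt4 and Fst were higher in the cultures while the sum was lower. Most of that sum is Amhr2, the receptor for anti-Müllerian hormone, which Sertoli cells also make. Rspo1, an amplifier of WNT signals, was at 2.99 and 7.76 CPM against 0.232 and 0.143.

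Retinoid genes, which govern when germ cells enter meiosis, showed 2 higher and 2 lower of 16 in the 2-day culture and 3 and 3 in the 7-day culture, with medians of -0.08 and -0.16. Cyp26b1, which degrades retinoic acid, was at 1.23 and 2.77 CPM in the cultures against 11 and 11.1 in vivo, and Cyp26a1 at 0.528 and 1.11 against 1.32 and 18.9. Aldh1a1, which makes retinoic acid, was at 932 and 906 against 808 and 553. Cyp26b1 was thus lower in both pairs and Cyp26a1 in the 7-day pair; in 2-day cells Cyp26a1 had 3 UMIs.

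Of 24 junction genes, 3 were higher and 1 lower in the 2-day pair (median 0.26), and 9 higher and 3 lower in the 7-day pair (median 0.35). Jam2, a junctional adhesion molecule, was at 480 and 321 CPM against 188 and 128. Ocln, the tight junction protein occludin, was at 36.8 and 35.1 against 57.9 and 55.6, and Cgn, cingulin, at 199 and 199 against 148 and 202. Dsp, desmoplakin, was at 10.6 and 6.65 against 3.10 and 0 CPM. The growth factors that keep spermatogonia were close to their counterparts: Gdnf was at 10.6 and 7.02 against 9.84 and 7.86 CPM and Kitl at 190 and 221 against 201 and 167. Among the 12 genes of germ cell support, 3 were higher and 1 lower in the 2-day pair and 4 higher and none lower in the 7-day pair. Pdgfa, a growth factor for myoid and Leydig precursors, was at 76.8 and 75.5 CPM against 40.0 and 4.86, with 72.8 and 43.2 CPM in germ-gated cells. Edn1, endothelin 1, was at 126 and 170 against 109 and 35.7 CPM, with 1.79 and 0.762 CPM in germ-gated cells.

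Of 22 genes for glycolysis and lactate export, 3 were lower and 1 higher in the 2-day pair (median -0.31) and 5 lower and 1 higher in the 7-day pair (median -0.26). Hk2, a hexokinase, was at 51.1 (45.3 to 57.3) and 97.2 (89.0 to 106) CPM against 158 (151 to 165) and 258 (246 to 270). Pkm, pyruvate kinase, was at 488 and 528 against 866 and 1181, and Ldha at 214 and 128 against 237 and 137. Hk2 was thus lower in both pairs and Pkm in the 7-day pair, while Ldha was close. Iron and metal handling had 8 of 15 genes higher and 1 lower in each pair, with medians of 1.30 (0.76 to 1.75) and 1.27 (0.65 to 1.36), and Lcn2 is 1 of them. In stroma-gated cells the list's medians were 1.70 and 1.18, and in germ-gated cells 0.02 and -0.03. Fth1 and Ftl1, the ferritin subunits, were at 3691 and 2650 against 1126 and 1517 CPM and at 2841 and 2643 against 1625 and 1068, with between 823 and 1475 CPM in germ-gated cells of the cultures. Cp, the ferroxidase ceruloplasmin, was at 116 and 18.3 against 4.49 and 3.57. Tfrc, the transferrin receptor, was the gene that was lower, at 7.92 and 9.42 against 25.9 and 32.7 CPM, and germ-gated cells held 60.7 and 52.8 CPM.

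Genes of lipid handling and engulfment had 3 of 21 higher and 1 lower in the 2-day pair and 5 higher and 4 lower in the 7-day pair. Apoe, a lipid carrier, was at 105 and 123 CPM against 12.6 and 15.6, but at 47.0 and 108 CPM in germ-gated cells, which reaches most of the 7-day value. Abca1, a cholesterol exporter, was at 57.0 and 88.5 against 23.1 and 33.3, with 8.94 and 10.8 CPM in germ-gated cells. Mfge8, the bridge to dying cells, was at 79.9 and 30.8 against 62.8 and 142 CPM, at or below the germ-gated 85.7 and 77.0. Of 30 basement membrane and matrix genes, 7 were higher and 1 lower in the 2-day pair and 10 higher and 5 lower in the 7-day pair. Timp1, a protease inhibitor, was at 167 and 50.1 against 9.61 and 7.14 CPM, with 130 CPM in the germ-gated cells of the 2-day culture and 6.19 CPM in those of the 7-day culture. Cyr61, a matricellular protein and early response gene, was at 739 and 995 against 413 and 29.3, and Serpine2, a protease inhibitor, at 247 and 185 against 203 and 12. For Cyr61 and Serpine2 it was the 14 dpp library that stood apart from the other 3.

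Division genes were lower in the 2-day culture than at 9 dpp. In that pair 21 of 32 were lower and none higher (median -1.64), and in the 7-day pair 2 lower, Cdk1 and Tpx2, and 1 higher, Rrm1 (median 0.09). Mki67, a marker of dividing cells, was at 2.99 and 2.77 CPM in the cultured Sertoli cells and 19.6 and 1.43 CPM at 9 and 14 dpp, so 9 dpp stood above the other 3 libraries. All 32 were below their germ-gated level in both cultures, where Mki67 was at 58.5 and 91.0 CPM; germ cells divide too, so that level includes their own RNA. Ccnd2, the cyclin that drives Sertoli division, was at 94.5 and 142 CPM against 403 and 96.3, with 137 and 54.9 CPM in germ-gated cells. Cdkn1a, a cell cycle inhibitor, was at 29.8 and 10.7 against 6.82 and 27.6 CPM, so the pairs went opposite ways, and Cdkn1b was at 30.5 and 25.3 against 15.2 and 21.6.

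Genes of cholesterol synthesis and oxidative defence gave few counts in either direction. The 21 cholesterol genes had 1 higher and none lower in the 2-day pair and none in either direction in the 7-day pair (medians 0.31 and -0.08). The 25 oxidative defence genes had 2 higher and 1 lower, then 1 and 1 (medians 0.12 and -0.01). The 23 cell death genes had 4 higher and none lower in each pair (medians 0.33 and 0.31), Casp12 among them, where the background is 6.42% and 10.6% higher.

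Over time in culture, 242 genes (2.07%) were at least 2-fold higher in the 7-day than in the 2-day Sertoli cells and 451 (3.86%) lower. In vivo, 507 (4.34%) were higher at 14 dpp than at 9 dpp and 1090 (9.32%) lower. These contrasts use the same libraries as the pairs above, so their values are set side by side and not counted as further evidence. The 8 genes with the highest ratio at 7 days were Rhox5, Drd4, Hopx, Hspa1b, Defb45, Hspa1a, Smim10l2a and 1700011M02Rik. Of these, Rhox5 had log2 ratios of 3.46 (2.77 to 4.15) in culture and 2.61 (2.42 to 2.81) in vivo, and Drd4 of 3.22 (2.66 to 3.79) and 2.52 (2.38 to 2.66). Defb45, a β-defensin gene, had 2.42 and 1.28. Hspa1a had 2.41 (2.20 to 2.63) in culture and -0.93 (-1.15 to -0.71) in vivo. The maturation list as a whole had a median of 0.51 (0.34 to 0.74) in culture, with 6 of 22 higher and 2 lower, and 0.70 (0.67 to 0.84) in vivo, with 8 higher and 2 lower. The list's summed level was 17990 CPM in 2-day and 18481 in 7-day cells, and 22213 and 35377 CPM at 9 and 14 dpp.

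The 8 genes with the lowest ratio at 7 days were Reg3b, Trem2, Lbp, Prph, Apoc1, Clca3a1, A2m and Gdpd2. Reg3b, an antimicrobial lectin, was at 25.5 CPM in 2-day cells, 0.554 in 7-day cells, 0 at 9 dpp, and 0.143 at 14 dpp, and its germ-gated level in 2-day cells was 0.162 CPM. Lbp, which hands bacterial lipopolysaccharide to Cd14, was at 71.3, 4.8, 1.24 and 1.0 CPM. A2m, a broad protease trap, was at 20.6, 2.22, 0.930 and 0 CPM, and Trem2, a receptor better known from macrophages, at 12.5, 0, 0.0775 and 1.0. For these 4 genes the 2-day cells were highest and both in vivo libraries stood at or under 1.24 CPM. Of the lists, inflammation had a median of -0.69 over time in culture (none of 42 higher, 16 lower), interferon -1.04 (14 of 26 lower) and antigen presentation -1.33 (13 of 21 lower). In vivo the same lists had medians of 0.09, 0.28 and 0.31. For the immediate early and heat shock list the median in culture was 0.82 (15 of 36 higher, 2 lower), where in vivo it had -0.50 (1 higher, 12 lower).

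Inflammatory UMIs per cell were most numerous in the 2-day culture. With each cell thinned to 2000 UMIs, the median 2-day Sertoli cell held 5 UMIs of inflammatory genes (10th to 90th percentile 2 to 13), the median 7-day cell 3 (1 to 7), and the median cell at 9 and 14 dpp 1 and 2. None was held by 1.74% of 2-day, 6.32% of 7-day, 18.6% of 9 dpp and 12.9% of 14 dpp cells, so most cells of every library held at least 1. The counts include Saa3, Hp, Ccl2 and Cxcl5. At least 3 such UMIs were held by 82.6% of the 2-day, 55.3% of the 7-day, 23.5% of the 9 dpp and 34.5% of the 14 dpp cells, and by 39.0%, 14.0%, 11.9% and 13.2% of germ-gated cells. The highest 2-day cell held 219. Antigen presentation gave 8 UMIs in the median 2-day cell (2 to 25) and 3 in the median 7-day cell (1 to 8), against 2 in each in vivo library. The germ-gated median of that list was 2 in both cultures. Immediate early and heat shock genes gave 21 (13 to 30) and 35 (19 to 58), against 19 at 9 dpp and 15 at 14 dpp, and the germ-gated medians were 17 and 22 in the cultures. Maturation genes gave 36 (21 to 53) and 37 (20.8 to 60.2), against 45 (31 to 61) and 71 (53 to 85), with 1 in germ-gated cells. Thinning to a fixed depth removes the shallower sequencing of the 2-day cells from these values.

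Shares of cells with a UMI of a single gene are given at the same fixed depth. Lcn2 was seen in 18.9% of 2-day and 5.23% of 7-day Sertoli cells, and in 0 and 0.31% at 9 and 14 dpp, with 1.55% and 0 of germ-gated cells in the cultures. Fos was seen in 52.8% and 85.4%, against 30.6% and 10.6% in vivo, and in 4.23 to 7.17% of germ-gated cells. Saa3 was seen in 42.4% of 2-day Sertoli cells and 43.4% of germ-gated cells of that library, so its share was no higher in the Sertoli cells. Median depths before thinning were 6589 and 8647 UMIs for the cultured Sertoli cells and 4394 and 7062 for the germ-gated cells.

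Within a library the lists were loosely related from cell to cell. Over the 689 cells of the 2-day culture, Spearman's rho was 0.41 between interferon and antigen presentation UMIs, 0.21 between inflammation and interferon, 0.21 between inflammation and stromal markers and -0.34 between inflammation and the gate genes. Over the 459 cells of the 7-day culture these values were 0.18, 0.07, 0.05 and -0.08 in the same order. In that culture rho was 0.41 between maturation and the gate genes (0.18 for 2-day cells, 0.48 at 9 dpp, 0.16 at 14 dpp) and -0.26 between the immediate early list and maturation. The cells of a library share depth and free RNA, so these are descriptions. In the 7-day culture Rhox5 was at 4.6, 23.2 and 65.5 CPM in cells with 0.5 to 1%, 1 to 1.5% and over 1.5% gate UMIs, and Drd4 at 4.6, 38.9 and 90.9, whereas Fos was at 2110, 2456 and 1949 CPM. The bands are cut by the gate genes, and the values are from 1 library.

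**Figure D4:**
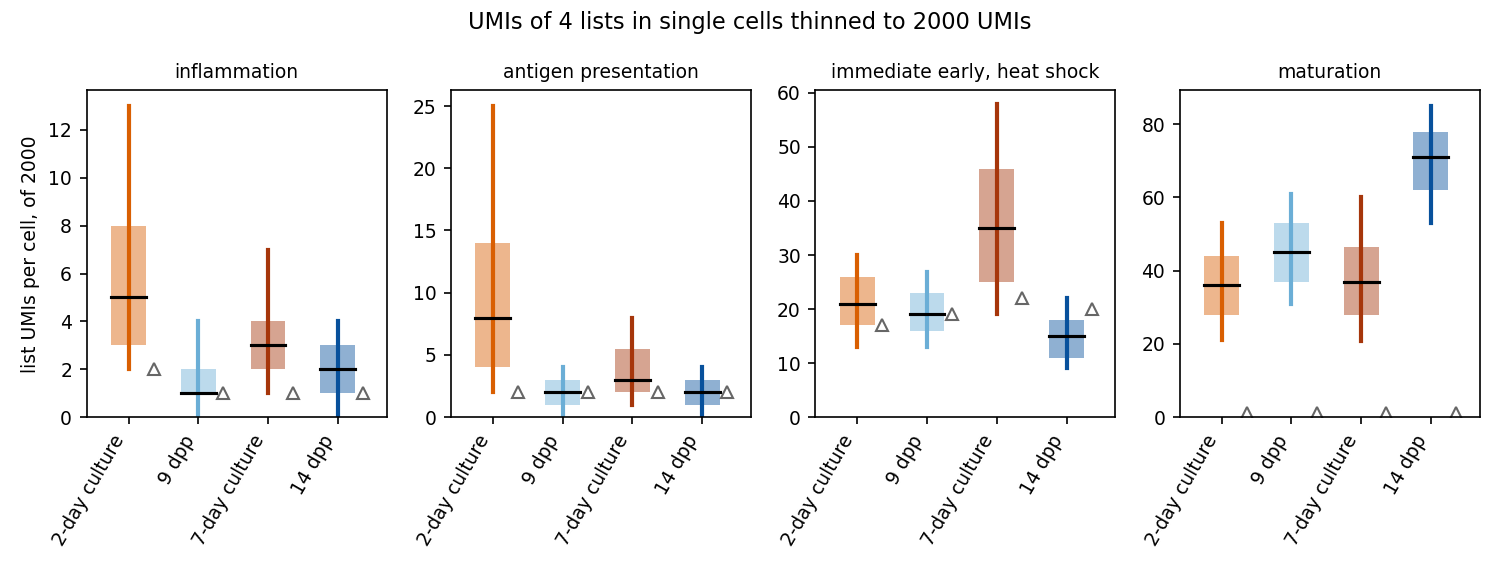
UMIs of each gene list per gated Sertoli cell (vertical axis), each cell thinned to 2000 UMIs, in the 4 libraries. Lines run from the 10th to the 90th percentile, boxes hold the quartiles, black bars are medians and triangles are the medians of germ-gated cells; the 2-day culture has the highest inflammation median (5) and the 7-day culture the highest immediate early and heat shock median (35).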

How the data were processed

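Each library was a droplet 3′ single-cell library, and the deposited values are whole-number counts: UMI counts per gene and barcode, made with Cell Ranger 3.0.2 on genome build mm10, per the submitters' processing notes. The annotation and the cell calling settings are not given in the sources used here. The 4 samples were grouped by their labelled culture time or age, 1 per group, so nothing was tested. Barcodes were filtered and gated as described above, with Python 3.11.15, numpy 2.4.6, scipy 1.17.1 and pandas 2.3.3. Germ-gated cells held at least 5 UMIs of the 3 germ genes, and stroma-gated cells at least 1% of 6 stromal genes. No free RNA was removed and doublets were kept; Scrublet in scanpy 1.11.5 called 35, 9, 19 and 10 of the gated Sertoli cells (2-day culture, 7-day culture, 9 dpp, 14 dpp), and removing them was an alternative. Genes starting with mt- were left out of the comparisons, and a gene counted as higher or lower past 2-fold on the log2 ratio of CPM plus 1. The genes named by size were the 12 higher and 12 lower with the largest smaller ratio over both pairs, and the 8 higher and 8 lower over time in culture, outside the gate and at least 2 times their germ-gated level where they were higher. Other genes were named as members of 22 lists for their known role. Members, lists and rules were chosen with earlier results of these data known. The ratio step was run on simulated counts with 200 changed genes. TMM factors came from edgeR 4.0.16 in R 4.3.3, figures from matplotlib 3.10.9, positions from GENCODE M21, transcript identities from the local aligner of Biopython 1.88, and promoters from RefSeq. In all, 14 alternatives were tried. Values of some genes are not reported here.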

Additional observations from a re-analysis of the deposited data

Results flagged for a closer look

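Some genes had values at least 2-fold apart in opposite directions in contrasts of the same kind. None of these differences was tested, since each group is 1 library, and the contrasts over time use the same libraries as the culture pairs.

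Over time, 8 immediate early genes were higher in 7-day than in 2-day Sertoli cells and lower at 14 dpp than at 9 dpp. The log2 ratio in culture minus that in vivo was 3.73 for Fosb, 3.42 for Atf3, 3.41 for Fos, 3.15 for Egr1, 2.86 for Btg2, 2.70 for Jun, 2.36 for Jund and 2.24 for Ier2. For the median of the whole immediate early and heat shock list it was 1.32. Ptgds, whose product makes prostaglandin D2, differed by 3.68 in the same direction.

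Some immune genes went the other way, lower over time in culture and higher in vivo, where the antigen presentation and interferon lists had medians of 0.31 and 0.28 in vivo and the inflammation list 0.09. The difference was -4.64 for Cd74, -3.69 for H2-K1, -2.93 for H2-D1, -3.28 for Irf7 and -2.37 for Oasl2. For Cd74 the in vivo ratio was 2.64 and that in culture -2.01. The summed macrophage markers also rose in vivo, from 17.3 CPM at 9 dpp to 44.8 at 14 dpp, and their part in the Cd74 values was not tested. Trf had -3.52 and Mfge8, which was at or below its germ-gated level in the cultures, -2.51.

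Cdkn1a was higher than its in vivo counterpart in the 2-day culture and lower in the 7-day culture, a difference of 3.26 between the pairs, and -3.26 when the same 4 values are read over time. Wnt6, a ligand made by Sertoli cells, was lower in the 2-day culture and higher in the 7-day culture, a difference of -2.18.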

How the results depend on the processing

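Of 126 recomputed values of the shares, the inflammation and maturation medians and the gene counts, 107 stayed within their error or within 1.5 times and 19 did not; the causes were not tested beyond what each setting does. The share of gated Sertoli cells was 9.47% (2-day culture) and 8.80% (7-day culture) with the gate at 1%, 15.6% (2-day culture), 16.4% (9 dpp) and 8.87% (14 dpp) with at least 4000 UMIs and at most 10% mitochondrial UMIs, 16.3% (9 dpp) with germ genes limited to 0.05% of UMIs and 11.9% (14 dpp) with up to 10 germ UMIs. The inflammation median of the 2-day pair was 1.18 with CPM plus 10 and 1.67 with no UMI minimum, and from 2.39 to 2.86 under the other settings; that of the 7-day pair, 1.61, was 0.54 with CPM plus 10, 0.88 with no UMI minimum and 2.30 with CPM plus 0.1. For maturation genes of the 7-day pair the median became -0.66 with cells weighted equally and -0.57 with cells thinned to 2000 UMIs. Genes at least 2-fold higher numbered 294 (2-day pair) and 405 (7-day pair) with CPM plus 10, and 2068 and 2240 with the germ-gated level subtracted. For the 7-day against the 2-day culture they numbered 375 with CPM plus 0.1, 57 with CPM plus 10, 622 after thinning and 568 after that subtraction. Subtraction also turned the 7-day against 2-day log2 ratio of Saa3 to 3.99 and of Cxcl5 to 1.38, both genes with Sertoli levels below the germ-gated level in the 2-day culture. Of the other list values 1101 held and 19 moved, and of single-gene values 7051 held, 843 moved and those 2 reversed. No paired analysis was possible because each group has 1 library. With 1 library per group, differences between animals, fragments, dissociations and libraries cannot be told apart from those of culture and age.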

Other observations

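X-linked genes were lower more often than autosomal genes in the cultured Sertoli cells. Of 442 X-linked genes tested, 50 (11.3%) were at least 2-fold lower in 2-day cells than at 9 dpp, and 62 (14.0%) in 7-day cells than at 14 dpp, against 5.94% and 6.55% of autosomal genes. The median X-linked gene had log2 ratios of -0.15 and -0.13 and the median autosomal gene -0.10 and 0.04. X-linked genes were also less often at least 2-fold higher, 2.94% and 8.60% against 6.56% and 10.6% of autosomal genes. In vivo 10.2% of X-linked and 4.10% of autosomal genes were higher at 14 dpp than at 9 dpp. Of the 8 genes named for the highest ratio of 7-day against 2-day culture, 3 were X-linked. The libraries share these values with the comparisons above, and the difference between X-linked and autosomal genes was not tested.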
